A study of Mus musculus with 6 samples.

Results

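The response of APOE4 microglia to tau P301S, with TREM2 present, was read from a pair of single-nucleus RNA libraries of mouse hippocampus, P301S/E4/TREM2+ and E4/TREM2+. Nuclei were kept when they had at least 200 detected genes, at most 5% of their UMIs from mitochondrial genes and fewer than 3 UMIs summed over F13a1, Mrc1, Cd163, Cd209f and Cbr2, transcripts of the macrophages at the borders of the brain. A UMI (unique molecular identifier) marks 1 captured transcript molecule. Of the 33335 nuclei deposited for all 6 libraries, P301S/E4/TREM2+ held 6267 and E4/TREM2+ held 5309. The rule left 6049 from P301S/E4/TREM2+ and 4935 from E4/TREM2+, 10984 together. Both groups were 9.5 months old, carried the E4 background and had TREM2, and P301S is the one labelled difference between them. Each library pooled 3 mice and was the only library of its genotype, so library and genotype cannot be told apart. There is accordingly no replicate and no test. Each interval below is a 95% interval that covers counting error only, and nuclei of 1 library are not replicates. The nuclei had been sorted for PU.1, the transcription factor of the myeloid lineage. The promoter and line of the P301S allele and the way APOE4 was introduced are not given in the sources used here, and the count matrices held no separate features for human APOE or human tau.

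Microglia are the resident macrophages of the brain. In their resting, or homeostatic, state they carry surface proteins such as the purine receptor P2RY12 and the chemokine receptor CX3CR1, and they depend on signalling through CSF1R. Near protein deposits and dying neurons they can lower these genes and turn on a lysosomal and lipid-handling programme known as the disease-associated microglia (DAM) state, whose later stage is described as needing the lipid receptor TREM2. A separate programme follows type I interferon, which acts through a complex of transcription factors on short promoter elements called interferon-stimulated response elements (ISRE).

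The 6049 nuclei with tau held 5529754 UMIs and the 4935 without held 3416170. Depth differed, with a median of 774 against 569 UMIs and 525 against 398 genes per nucleus, and the lowest deposited nucleus had 500 against 413 UMIs. Shares of nuclei are therefore given after each nucleus was thinned at random to 500 UMIs, which kept all 6049 nuclei with tau and 3468 of 4935 without. Mitochondrial transcripts were 0.473% of UMIs with tau and 1.10% without. The border macrophage rule had removed 137 nuclei (2.21%) and 153 nuclei (3.01%), and 11 cell barcodes occurred in both libraries. The labelled cells matched their markers, since all 23 microglia markers were measured and summed to 24284 CPM (UMIs of a gene per 1000000 UMIs of the used nuclei of the library) with tau and 32375 CPM without. Markers of other cells summed to 136 against 388 CPM for 12 neuron genes, 810 against 404 CPM for 10 astrocyte genes, 311 against 194 CPM for 11 oligodendrocyte genes, 427 against 557 CPM for 10 border macrophage genes and 100.2 against 30.2 CPM for 10 monocyte genes. The B cell list summed to 249.02 against 646 CPM, and its 3 measured genes (Ighm, Bank1 and Cd79b) were all at least 2-fold lower with tau, while Cd79a, Ms4a1 and Pax5 were at 0 UMIs in both. Among genes with at least 50 UMIs, 4 of 8 measured astrocyte genes (Gfap with 474 against 45 UMIs) and 4 of 5 measured monocyte genes were at least 2-fold higher with tau, while the monocyte genes Ly6c2, Chil3 and Plac8 had 6, 3 and 1 UMIs against 0. The part of these other cells in the results was not tested, except where values with nuclei left out are given. Trem2 (chromosome 17, 48346401 to 48354147, GRCm38), the receptor whose presence the pair shares, had 6231 UMIs (1127 CPM) with tau and 3190 UMIs (934 CPM) without, a log2 ratio of 0.27 (interval 0.21 to 0.33).

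Of 10714 genes with at least 50 UMIs in the 2 libraries together, 640 were gained with tau, meaning at least 2-fold higher in CPM (5.97%), and 463 were lost, at least 2-fold lower (4.32%). The median log2 ratio over all of them was 0.01. The gains were the steeper side: 213 genes were past 4-fold and 44 past 16-fold, against 80 and 6 on the side of the losses. Summed, the gained genes were at 48755 CPM with tau and 15438 CPM without, and the lost genes at 26929 and 64181 CPM. In 333 gained and 200 lost genes the whole interval lay past 2-fold. At the threshold, Rdh5 was just inside with a log2 ratio of 1.0003 (interval 0.28 to 1.78) and Lag3 just outside with 0.99998 (0.86 to 1.14), while Rnase4 was just inside the losses with -1.0001 (-1.18 to -0.82) and Gimap9 just outside with -0.998 (-1.58 to -0.42). Of the gained genes, 7 had no UMI at all in E4/TREM2+, and none of the lost genes was at 0 with tau.

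**Figure D1:**
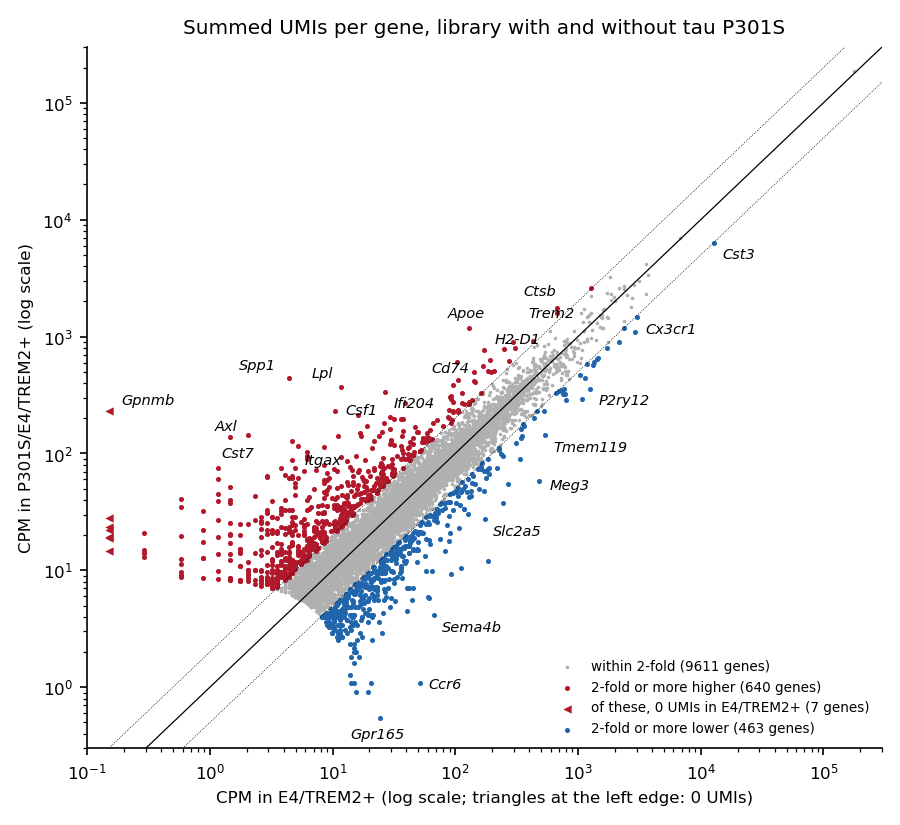
CPM of each of 10714 genes in E4/TREM2+ (x axis) against P301S/E4/TREM2+ (y axis), both on log scales, with the line of equality and dotted lines at 2-fold. Red points are the 640 gained genes, red triangles at the left edge the 7 of them with 0 UMIs without tau, and blue points the 463 lost genes; the red points reach farther from the line than the blue ones.

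Transcripts of the late DAM state were among the steepest gains. Gpnmb, a lysosomal and surface glycoprotein (chromosome 6, 49036546 to 49070929), had 1268 UMIs with tau and 0 without, which against a floor of 3 UMIs in a library is at least 261-fold higher. This bound, a log2 ratio of 8.03, leaves out counting error in the library with tau, and the exact interval reached down to 7.73. The same limit holds for the other folds given as at least. Spp1, the secreted matrix protein osteopontin (chromosome 5, 104435118 to 104441050), had 2445 against 15 UMIs, a log2 ratio of 6.65 (5.93 to 7.49). Cst7, which encodes the cathepsin inhibitor cystatin F, had 763 against 5 UMIs (6.56, interval 5.33 to 8.19), and Axl, a receptor for dying cells, 791 against 7 UMIs (6.13, interval 5.08 to 7.44). Summed over all nuclei of E4/TREM2+, none of these 4 genes had more than 15 UMIs.

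Lpl, lipoprotein lipase, had 2058 against 40 UMIs (log2 ratio 4.99, interval 4.54 to 5.48). Csf1, a ligand of CSF1R, had 1283 against 36 (4.46, interval 3.98 to 4.98), and Itgax, the CD11c integrin chain, 642 against 18 (4.46, interval 3.79 to 5.23). Of 25 measured DAM stage 2 genes 21 were gained and none lost, with a median log2 ratio of 2.34 beside 0.01 for all genes. The 4 within 2-fold were Trem2, Cd68, Cadm1 and Ctsz, with ratios of 0.27 to 0.90. In the early list, DAM stage 1, 7 of 10 were gained and none lost (median 1.31), led by Apoe at 1177 against 128 CPM (log2 ratio 3.20, interval 3.06 to 3.34), the lysozyme gene Lyz2 at 601 against 104 CPM and H2-D1 at 762 against 171 CPM. Tyrobp, the signalling adaptor of TREM2, was at 601 against 421 CPM and stayed within 2-fold. Medians are the same when genes with 0 UMIs take their bound, since each bound lies above its list's median.

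Genes of secreted factors, matrix proteins and lipid-handling enzymes were gained as well. Among growth factors and matrix genes 13 of 21 were gained and 2 lost (median 1.45). Igf1, the insulin-like growth factor, had 712 against 16 UMIs (log2 ratio 4.78, interval 4.07 to 5.60), Lox, the enzyme that crosslinks collagen, 155 against 0 (at least 31.9-fold higher), and Dkk2, a secreted WNT modulator, 106 against 0 (at least 21.8-fold higher). Flt1, the VEGF receptor and an endothelial gene, had 417 against 4 UMIs (6.01, interval 4.64 to 7.89), while the endothelial gene Cldn5 had 1 against 0 UMIs and Pecam1 98 against 145. Sh3pxd2b, a podosome scaffold, had 285 against 5 UMIs, and Baiap2l2, a membrane-bending protein, 250 against 4.

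Of 24 lipid storage and export genes 13 were gained and none lost (median 1.13). Apoc1, an apolipoprotein next to Apoe, had 81 against 0 UMIs (at least 16.7-fold higher), and Stra6l 123 against 0 (at least 25.3-fold higher). Xdh, xanthine dehydrogenase, had 116 UMIs against 1, a log2 ratio of 6.16 whose interval ran from 3.66 to 11.48. Plin2, which coats lipid droplets, was at 57.1 against 13.2 CPM, and Soat1, which esterifies cholesterol for storage, at 229 against 96.3 CPM. None of 13 measured cholesterol synthesis genes passed 2-fold in either direction (median -0.20), beside 5.97% gained and 4.32% lost among all genes, a background at which a list of this size may hold none.

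Lysosomal genes were gained in part. Ctsb, cathepsin B, was at 1755 against 677 CPM (log2 ratio 1.37, interval 1.31 to 1.44), Cd63, a tetraspanin of late endosomes, at 502 against 142 CPM, and Ctsd, cathepsin D, at 3238 against 1831 CPM (0.82, interval 0.78 to 0.86), within 2-fold. Atp6v0d2, a subunit of the vacuolar proton pump, had 105 against 0 UMIs (at least 21.6-fold higher). Of 32 measured lysosome and proteolysis genes 7 were gained and 1 lost, beside 5.97% and 4.32% of all genes, and the median was 0.46. The list's summed UMIs had the opposite sign (log2 ratio -0.14), and Cst3, the secreted protease inhibitor cystatin C, was at 6362 against 12920.0 CPM (-1.02, interval -1.042 to -1.002). All 7 gained members were also counted in the DAM lists. Cst7, Ctsl, Cd63, Atp6v0d2 and Gpnmb are in stage 2, and Ctsb and Cstb in stage 1. Rab7b, a late-endosome GTPase, had 224 against 2 UMIs (6.11, interval 4.24 to 9.17).

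**Figure D2:**
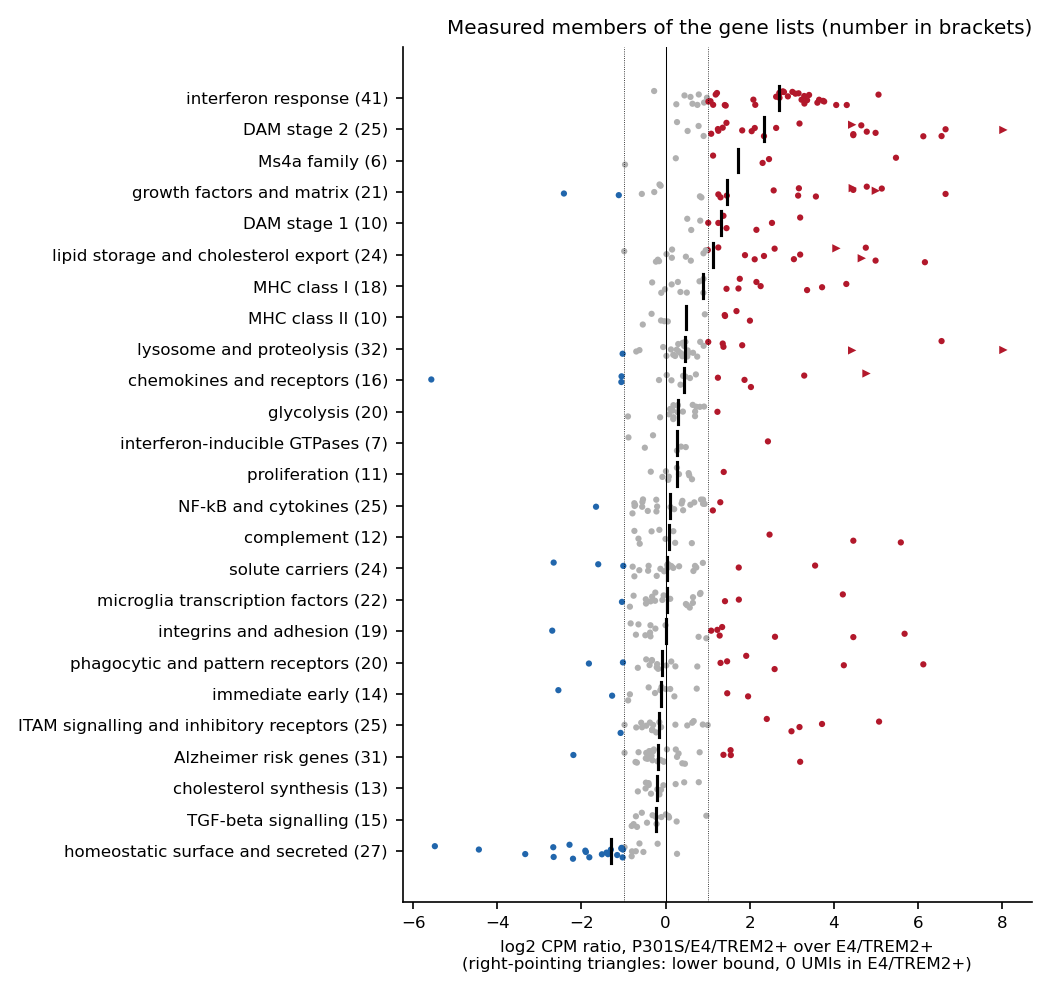
Log2 CPM ratio, P301S/E4/TREM2+ over E4/TREM2+ (x axis), of every measured member of 25 gene lists (rows, with the number measured), with the list median as a black bar and dotted lines at 2-fold. Red is gained, blue is lost, grey is neither, and right-pointing triangles are lower bounds of genes with 0 UMIs without tau; interferon response (median 2.70) and DAM stage 2 (2.34) lie farthest to the right and homeostatic genes (-1.30) farthest to the left.

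Interferon-response genes formed the second large group. Of 41 measured members 31 were gained and none lost, beside 5.97% gained and 4.32% lost among all genes. Their median log2 ratio was 2.70, and 40 lay above 0. Ifi204, a nucleic acid sensor of the interferon-inducible p200 family, was at 338 against 26.9 CPM (1867 against 92 UMIs, log2 ratio 3.65, interval 3.35 to 3.97). Its neighbour Ifi207 had 565 against 21 UMIs (4.05, interval 3.43 to 4.76). Mndal, a p200 family gene outside the list, went the other way. It was at least 2-fold lower with tau here and at least 2-fold higher in the pair without TREM2. Oasl2, an oligoadenylate synthetase-like protein, had 628 against 29 UMIs (3.74, interval 3.21 to 4.33), Ifi27l2a 216 against 4 (5.06, interval 3.68 to 6.95), and Ifit3, which binds RNA and adaptors of antiviral signalling, 182 against 16 (2.81, interval 2.07 to 3.65). Cxcl10, an interferon-induced chemokine, had 397 against 25 UMIs, but at 500 UMIs per nucleus its transcript was found in only 0.876% of nuclei with tau and 0.0865% without. Of the interferon-inducible GTPases, a family typical of interferon gamma, 1 of 7 measured members was gained, Iigp1 with 131 against 15 UMIs, beside 5.97% of all genes, and Irgm1 was at 33.5 against 24.0 CPM. The other 9 of 16 members had under 50 UMIs, among them Gbp2b with 41 against 0 UMIs (at least 8.44-fold higher) and Gbp4 with 38 against 3 (log2 ratio 2.97, interval 1.31 to 5.31), both chosen after their values were seen. Reads that match near-identical copies in these families (Ifi204 and Ifi207, Ifit3 and Ifit3b, H2-Q6 and H2-Q7) may be miscounted. Values of single members are therefore uncertain.

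Promoter windows from RefSeq (GRCm38.p6, 250 bases before to 50 after the gene start, the most upstream start of each gene) were searched on both strands for the ISRE core GAAA, any 2 bases, GAAA. It was in 14 of the 22 gained interferon-response genes with a window (63.6%), in 37 of 464 gained genes with a window (7.97%), these 14 among them, and in 3.49% of all 27025 windows. The list was made of interferon-response genes, and no share was taken for its members that were not gained. The frequency thus describes the list and does not bear on the gain with tau. Among gained DAM stage 2 genes it was in 1 of 15, Spp1. The 170 bases before the start are shown for 4 gained interferon genes that hold the core, with each match in capitals, because the core was far more frequent in this group than in the table. Ifit3 lies at chr19:34583359-34583528 (+ strand, 2 matches), Isg15, a ubiquitin-like protein, at chr4:156200819-156200988 (- strand, 3 matches that overlap), Rsad2, the antiviral enzyme viperin, at chr12:26456453-26456622 (- strand, 1 match) and Ifi207 at chr1:173741810-173741979 (- strand, 1 match). A match on the opposite strand reads TTTC, any 2 bases, TTTC.
Ifit3: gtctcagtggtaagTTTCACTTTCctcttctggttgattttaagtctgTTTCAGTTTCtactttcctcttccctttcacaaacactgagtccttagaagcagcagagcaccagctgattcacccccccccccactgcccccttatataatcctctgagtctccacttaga
Isg15: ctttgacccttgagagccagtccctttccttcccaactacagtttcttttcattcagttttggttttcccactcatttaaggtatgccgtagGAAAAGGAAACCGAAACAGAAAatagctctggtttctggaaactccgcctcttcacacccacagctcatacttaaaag
Rsad2: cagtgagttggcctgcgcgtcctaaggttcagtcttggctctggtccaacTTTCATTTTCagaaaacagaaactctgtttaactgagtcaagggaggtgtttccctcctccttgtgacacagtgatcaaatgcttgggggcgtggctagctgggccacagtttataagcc
Ifi207: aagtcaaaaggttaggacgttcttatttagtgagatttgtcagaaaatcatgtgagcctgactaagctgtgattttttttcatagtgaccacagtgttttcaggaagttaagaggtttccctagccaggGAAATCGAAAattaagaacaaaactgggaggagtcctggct
The PU.1 site GAGGAAGT, also searched on both strands, was in 3.25% of all windows and in 1 of the 15 gained DAM stage 2 genes, Spp1 (chr5:104434941-104435110, + strand). No window in the table had a PU.1 site overlapping an ISRE core. As written, these strings can share at most 1 base at an end, so the search could hardly find an overlap and shows nothing about joint sites.
Spp1: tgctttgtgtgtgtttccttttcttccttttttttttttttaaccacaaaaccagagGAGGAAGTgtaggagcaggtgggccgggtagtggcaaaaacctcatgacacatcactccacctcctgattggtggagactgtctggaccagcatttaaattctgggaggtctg
A match is a description of the letters, and factor binding was not measured.

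Antigen-presentation genes were gained in both classes. Of 18 MHC class I genes 8 were gained and none lost (median 0.90), among them H2-D1 with 4212 against 583 UMIs (log2 ratio 2.16, interval 2.03 to 2.29), H2-Q7 with 413 against 13 and Nlrc5, the class I transactivator, with 283 against 17 (3.36, interval 2.66 to 4.16). Of 10 MHC class II genes 4 were gained (median 0.49). Cd74, the invariant chain, was at 382 against 95.1 CPM (2.00, interval 1.83 to 2.18), H2-Aa, an alpha chain of the class II dimer, at 117 against 36.3 CPM (1.68, interval 1.40 to 1.97), and H2-Ab1, its partner, at 111 against 41.6 CPM. The peptide-loading genes H2-DMa and H2-DMb1 had ratios of 0.05 and -0.03.

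Receptors and chemokines were divided. Fgr, a SRC-family kinase, had 1171 against 55 UMIs (log2 ratio 3.72, interval 3.33 to 4.13), Cd22, an inhibitory sialic acid receptor, 515 against 40, Cd300lf, a lipid receptor, 488 against 16, and Lilrb4a, an inhibitory immunoglobulin-like receptor, 955 against 65. The counts in this paragraph stand beside 5.97% gained and 4.32% lost among all genes. Within the list of ITAM signalling and inhibitory receptors 5 of 25 were gained and 1 lost (median -0.15), and the kinase Syk, at 184 against 198 CPM, stayed within 2-fold. Of 16 chemokine and receptor genes 5 were gained and 3 lost, with a median of 0.44 but a summed log2 ratio of -0.68. Cxcl13, the B cell attractant, had 131 against 0 UMIs (at least 27.0-fold higher) and Cxcl16 660 against 100. Among complement genes 3 of 12 were gained: C3 with 78 UMIs against 1 (5.59, interval 3.07 to 10.91), C4b with 287 against 32 and Itgax. C1qa, the most upstream component, was at 4153 against 3549 CPM. Of 25 genes of the NF-kB and cytokine list 2 were gained and 1 lost (median 0.12, summed log2 ratio -0.01). These shares are near the 5.97% gained and 4.32% lost among all genes and do not set the list apart. Tlr2, a pattern receptor, was at 89.3 against 36.3 CPM, and Il6 had 18 against 35 UMIs (-1.65, interval -2.56 to -0.79).

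On the losing side the homeostatic surface and secreted genes stood together: 19 of 27 were lost, none was gained, 26 lay below 0 and the median log2 ratio was -1.30. P2ry12 (chromosome 3, 59216272 to 59262871) was at 358 against 1258 CPM, a log2 ratio of -1.81 (-1.89 to -1.74), and Tmem119, a microglial membrane protein, at 144 against 539.8 CPM (-1.91, interval -2.03 to -1.79). Cx3cr1 was at 1458 against 3022 CPM (-1.05, interval -1.09 to -1.01) and Csf1r at 1176 against 2374 CPM (-1.01, interval -1.06 to -0.97), both close to the threshold. The steepest losses in the list were of weakly expressed genes. Gpr165, an orphan receptor, had 3 against 83 UMIs (-5.48, interval -7.79 to -3.89), Gp9, a platelet glycoprotein, 5 against 67 (-4.44), Upk1b, a tetraspanin, 33 against 206 (-3.34) and Slc2a5, the fructose transporter, 152 against 594 (-2.66, interval -2.93 to -2.40).

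Further losses fell outside that list. Ccr6, a chemokine receptor (chromosome 17, 8236043 to 8257141), had 6 against 176 UMIs (-5.57, interval -7.03 to -4.42). Il7r, the interleukin 7 receptor, had 32 against 208 UMIs, Bank1, a B cell adaptor also read in myeloid cells, 51 against 314, Siglecg, an inhibitory sialic acid receptor, 6 against 70, Sema4b, a semaphorin, 23 against 229, and Myo18b, an unconventional myosin, 58 against 381. Ivns1abp lost most CPM after Cst3 among the named genes, at 1105 against 2908 CPM (-1.40, interval -1.44 to -1.35). The mitochondrial transcripts mt-Co1 and mt-Co3 were at 794 against 1724 and 892 against 2159 CPM, beside the difference in mitochondrial share given above.

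The losses also held transcripts of neurons. In E4/TREM2+ 37 nuclei and in P301S/E4/TREM2+ 13 nuclei carried 5 or more UMIs of the 12 neuron genes. Without them 323 genes were lost and 651 gained, and 126 of the 463 lost genes were no longer 2-fold lower. Meg3, a long noncoding RNA abundant in neurons, went from -3.05 to 0.40 on the log2 scale, Snhg11 from -2.71 to 0.75, and Npas4, a gene induced by neuronal activity, from -1.42 to 3.97. C1ql3, a synaptic organiser, went from -2.69 to -0.51. Leaving out nuclei with 5 or more UMIs of any other cell type (added after seeing the data) gave 619 gained and 319 lost genes. The homeostatic genes P2ry12 and Tmem119 were as low without the neuron-marked nuclei, at -1.84 and -1.93. Outside that list Ccr6 was at -5.60, and Spp1, Lpl and Ifi204 were at 6.62, 5.03 and 3.63.

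Of 22 measured microglial transcription factor genes 3 were gained and 1 lost, with a median log2 ratio of 0.03, beside 5.97% gained and 4.32% lost among all genes. Sall1, which maintains microglial identity, was at 218 against 302 CPM (log2 ratio -0.47, interval -0.59 to -0.34), Mef2a at 2155 against 2759 CPM (-0.36) and Mef2c at 2771 against 2864 CPM (-0.05, interval -0.08 to -0.01). Bhlhe40 had 240 against 8 UMIs (4.21, interval 3.21 to 5.44), Hif1a, the hypoxia-inducible factor, was at 304 against 91.0 CPM (1.74, interval 1.56 to 1.92), Mitf, a regulator of lysosomal genes, at 237 against 89.3 CPM (1.41, interval 1.23 to 1.60), and Ets1 at 89.7 against 184 CPM (-1.04). None of 15 TGF-beta signalling genes passed 2-fold (median -0.23), which at a background of 5.97% gained and 4.32% lost does not set the list apart. Tgfbr1, which transmits the signal that sustains the homeostatic state, was at 1347 against 2357 CPM (-0.81, interval -0.85 to -0.76). Of 11 measured proliferation genes only Cenpf, a centromere protein, was gained, with 371 against 88 UMIs, and Mki67 had 12 against 8 UMIs, too few to show a 2-fold difference in either direction (-0.11, interval -1.52 to 1.39). Of 31 genes near Alzheimer risk loci 4 were gained (Apoe, Ctsb, Plekha1 and Clu) and 1 lost (Cass4), beside the same 5.97% and 4.32% among all genes. Clu was named after its values were seen.

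At equal depth, 69.1% of nuclei with tau (67.9% to 70.2%) and 23.3% without (21.9% to 24.8%) had 3 or more UMIs of the DAM stage 2 list. Without thinning the shares were 87.4% and 34.5%. Of the nuclei marked by neuron transcripts (10 or more UMIs of the neuron genes), which should lack the programme, 1 of 8 with tau and 1 of 30 without had 3 or more, although their median depth before thinning was 4563.5 and 2885 UMIs. Other lists were found in them more often: 5 of 8 and 6 of 30 had 3 or more UMIs of DAM stage 1, and 5 of 8 and 9 of 30 of the homeostatic list. These nuclei were thus not free of such transcripts. For the interferon list the shares were 21.7% (20.7% to 22.7%) and 4.21% (3.57% to 4.93%), 39.4% and 7.72% without thinning, and 0 of 8 and 0 of 30 neuron-marked nuclei, which allows shares of up to 37.5% and 10.0%. MHC class I gave 18.6% and 2.39%, and MHC class II 2.78% and 0.692%. The DAM stage 2 list counts Trem2, Ctsz, Cd68 and Cadm1, which were within 2-fold between the libraries. At 1000 UMIs, reached by 1391 nuclei with tau and 432 without, its shares were 94.1% and 51.6%. Neuron-marked nuclei were not left out of these shares.

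Single transcripts were found in far fewer nuclei than the lists. Gpnmb was in 5.93% of nuclei with tau (359 of 6049) and in 0 of 3468 without, which allows a share of up to 0.0865%. Spp1 was in 12.6% against 0.0865%, Lpl in 12.2% against 0.433%, Axl in 7.08% against 0.115% and Itgax in 5.44% against 0.288%. Apoe was in 40.5% against 4.99% and Cd74 in 13.7% against 2.31%. P2ry12 was in 16.4% of nuclei with tau (15.4% to 17.3%) against 45.9% without (44.3% to 47.6%), Tmem119 in 7.16% against 23.7% and Cx3cr1 in 49.5% against 75.1%. Without thinning Gpnmb was in 9.09% against 0, Spp1 in 18.2% against 0.122%, Apoe in 55.5% against 6.46% and P2ry12 in 24.8% against 52.5%. In the 30 neuron-marked nuclei without tau, P2ry12, Apoe, Spp1 and Gpnmb were in none at 500 UMIs, which allows up to 10.0%, and Cx3cr1 was in 4. In the 8 with tau, Apoe was in 4, P2ry12 and Lpl in 1 each, and Spp1 and Gpnmb in none. For Apoe the share in these few nuclei was no lower than the 40.5% in the microglia.

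**Figure D3:**
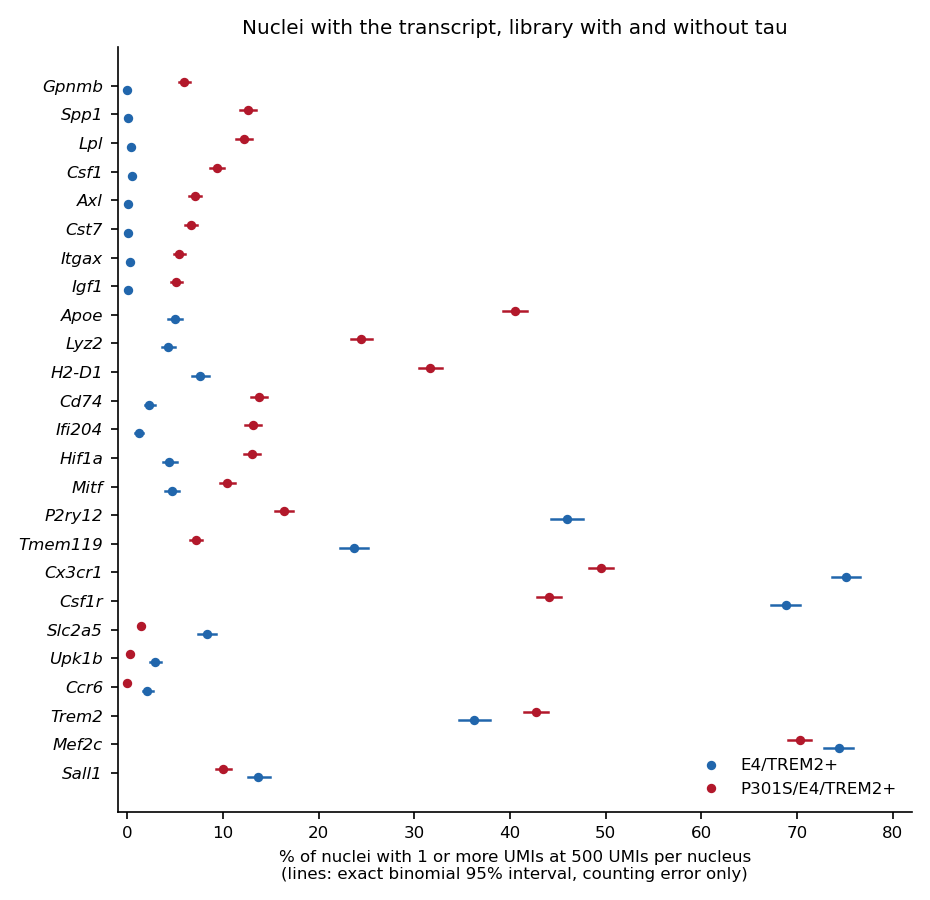
Percent of nuclei with 1 or more UMIs of each gene after thinning to 500 UMIs (x axis) in P301S/E4/TREM2+ (red, 6049 nuclei) and E4/TREM2+ (blue, 3468 nuclei); lines are exact binomial 95% intervals and cover counting error only. Apoe has the widest gap among the gained genes shown (40.5% against 4.99%), P2ry12 among the lost ones (16.4% against 45.9%), and Trem2, Mef2c and Sall1 have small gaps.

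The homeostatic list was lower with tau at the 10th percentile, the median and the 90th percentile of nuclei. At 500 UMIs a nucleus with tau held a median of 9 UMIs of the list, with 4 at the 10th and 16 at the 90th percentile, and a nucleus without tau held 18, with 11 and 27. The list was at 0 UMIs in 0.198% of nuclei with tau and 0.317% without. Shares with 3 or more such UMIs were 97.5% with tau and 99.0% without, and 99.5% and 96.5% at 1000 UMIs, in the opposite order, while 14.6% against 73.2% had 15 or more, a threshold added after the data had been seen. The 90th percentile with tau thus lay below the median without. In the DAM stage 2 list the mean was 4.01 UMIs with tau (SD over nuclei 2.63) and 1.62 without (SD 1.41), and 3.49% against 22.9% of nuclei had none.

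**Figure D4:**
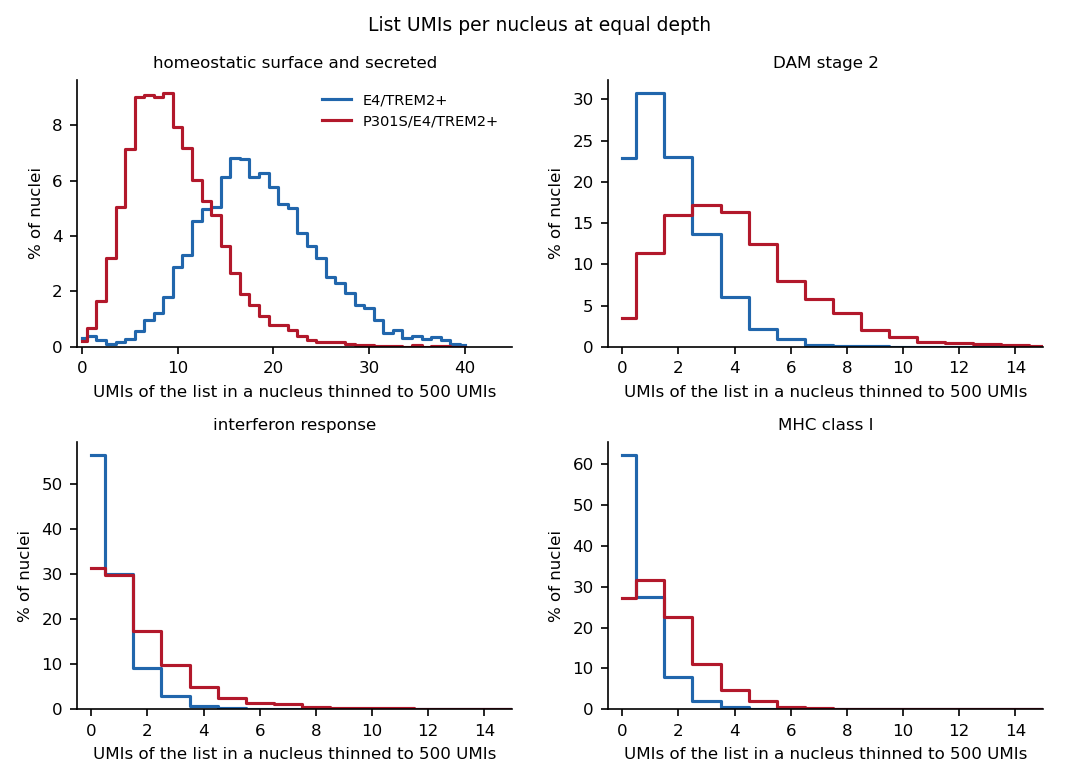
Percent of nuclei (y axis) by the number of UMIs of 4 gene lists in a nucleus thinned to 500 UMIs (x axis) for P301S/E4/TREM2+ (red) and E4/TREM2+ (blue). The homeostatic list has a median of 9 UMIs with tau and 18 without, and the DAM stage 2 list spreads to the right, with 69.1% against 23.3% of nuclei at 3 or more.

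Within the library with tau nuclei with many DAM UMIs were about as often interferon-positive as nuclei with few. DAM stage 2 and interferon lists were both at 3 or more UMIs in 15.1% of nuclei, where the product of the 2 separate shares was 14.98%, and 24.3% had neither. The share with 3 or more interferon UMIs was 21.8% in nuclei with 0 DAM stage 2 UMIs (211 nuclei) and 20.7% in those with 10 or more (193 nuclei). A nucleus gives few molecules of each list at 500 UMIs, and a weak relation may not be detectable.

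Some DAM transcripts did occur together in the nuclei with tau. Of the 359 nuclei with Gpnmb 34.8% (29.9% to 40.0%) also had Spp1, against 11.2% (10.4% to 12.1%) of those without Gpnmb, and 17.5% (13.8% to 21.9%) had Igf1 against 4.31% (3.79% to 4.87%). For Cst7 (6.41% against 6.66%) and Axl (6.96% against 7.08%) the shares in nuclei with and without Gpnmb differed by less than their intervals. Nuclei with Gpnmb had P2ry12 less often, 8.36% (5.71% to 11.7%) against 16.9% (15.9% to 17.9%). Nuclei with H2-Aa had Cd74 in 38.0% against 12.6%. These shares describe nuclei of 1 library, and doublets were gated out at the sort but not called from the counts.

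The same comparison in mice without TREM2, P301S/E4/TREM2- over E4/TREM2-, shares no library with the pair above and gave 7.82% of genes gained and 6.84% lost. Among 10629 genes measured in both pairs, 405 of the 618 gained with TREM2 were also gained without it, 65.5% of the first list and 54.9% of the 738 gained without TREM2, where 6.94% of those genes are gained. Of 450 lost genes 294 were lost in both, 65.3% and 48.5%, beside 5.70% lost among all. Across 6631 genes with 200 or more UMIs in each pair the ratios had a Pearson correlation of 0.764 and a Spearman correlation of 0.576, given as a description over genes, which share library depth. The difference between the pairs has no test.

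Side by side, several leading genes had like ratios in both pairs and others did not. Gpnmb had 2386 against 3 UMIs without TREM2 (8.60), and P2ry12 a ratio of -1.39 beside -1.81. The late DAM genes had lower ratios without TREM2 for Cst7 (5.25 beside 6.56), Axl (4.57 beside 6.13), Igf1 (2.93 beside 4.78) and Itgax (3.60 beside 4.46), and a higher one for Spp1 (8.48 beside 6.65), where only 1 UMI was found in E4/TREM2-; with tau Spp1 was at 93.4 CPM without TREM2 and 442 CPM with it. The share of nuclei with 3 or more DAM stage 2 UMIs was 54.4% against 20.4% in the TREM2- pair, and that for the interferon list 34.4% against 3.25%. MHC class II had a median of 0.07 there, with Cd74 at 207 against 190 CPM (0.13) and H2-Aa at -0.10. Flt1 (1.69 beside 6.01), St8sia6 (0.47 beside 3.99), Etl4 (1.01 beside 3.86) and Cxcl13 (0.10, with 11 against 5 UMIs) had smaller ratios without TREM2, while Mki67 had 193 against 13 UMIs (2.85 beside -0.11) and Top2a 374 against 43 (2.08 beside 0.27) without TREM2.

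**Figure D5:**
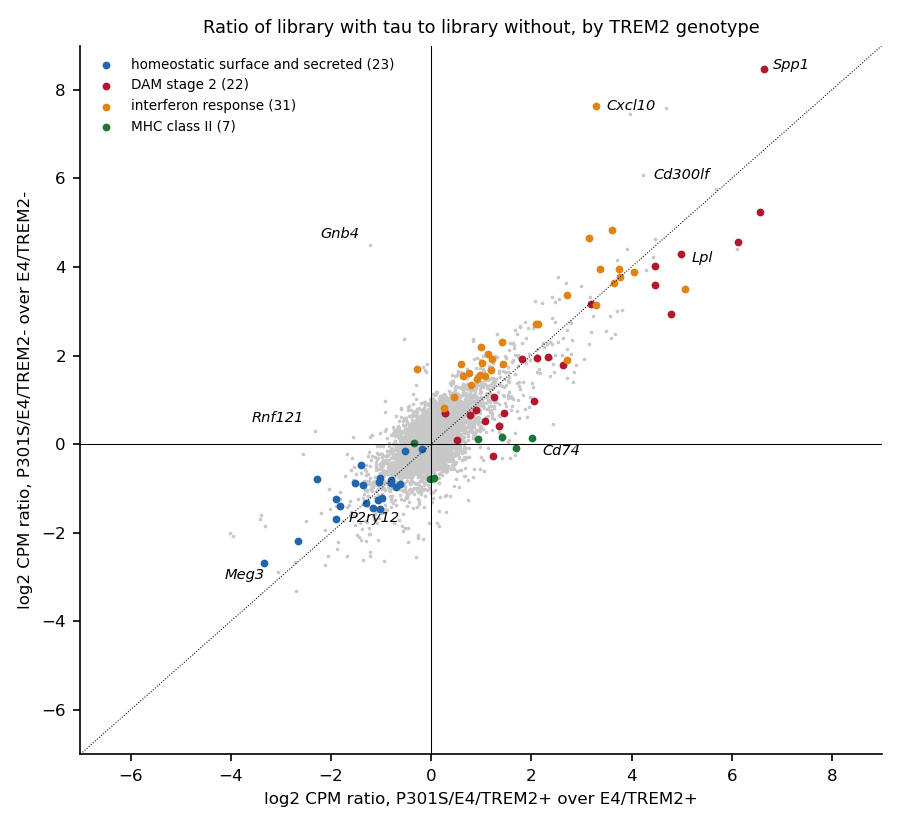
Log2 CPM ratio of the library with tau to the one without, in the TREM2+ pair (x axis) and the TREM2- pair (y axis), for 6631 genes with 200 or more UMIs in each pair; the dotted line marks equality and the number drawn of each list is in the key. Of 31 interferon genes (orange) 26 lie above the line. Of 22 DAM stage 2 genes (red) 19 and of 7 MHC class II genes (green) 6 lie below it, and the homeostatic genes (blue) are low on both axes. Over all 6631 genes the median difference, TREM2+ pair minus TREM2- pair, was -0.14, so genes in general also lie more often above the line.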

How the data were processed

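Each library was deposited as a matrix of raw UMI counts per gene and nucleus, per the file headers made by Cell Ranger 3.0.1 with mm10, and the labels' protocols name 10x Genomics v3.1 chemistry. The authors' comparison tables hold no comparison of this pair and were not used. Counts were summed over the chosen nuclei and divided by all UMIs of those nuclei (CPM); gene places are from GENCODE vM21. Ratios have exact conditional (Clopper-Pearson) and shares exact binomial 95% intervals. The upper limit given for a share of 0 is instead 3 divided by the number of nuclei. For 0 of 30 and 0 of 8 nuclei the exact upper ends were 11.6% and 36.9%. Python 3.11.15, numpy 2.4.6, scipy 1.17.1, pandas 2.3.3 and edgeR 4.0.16 (R 4.3.3, TMM factors only) were used, and the steps were tested on simulated counts.

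With 1 library per genotype no test was run. Genes with under 50 UMIs in the 2 libraries together were not called. Thinning drew 500 UMIs without replacement. Doublets were gated out at the sort, per the labels, and not called here; 123 and 116 nuclei above 3 times the median UMI were left out in an alternative. The features held no Clec7a, so it was not analysed here. Named genes were those with interval ends farthest from 0 (20 in each direction), the 10 largest gains and losses in CPM, up to 4 per list, a set of fixed names and the 6 largest differences each way between the TREM2 pairs; other list members were named after their values were seen. The members, lists and tests were chosen with earlier results of these data known. Values of a few single list members are not reported here.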

Additional observations from a re-analysis of the deposited data

Results flagged for a closer look

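Of all genes measured in both pairs, 4 of 618 gained with TREM2 were at least 2-fold lower with tau in the TREM2- pair, and 4 of 450 lost with TREM2 were at least 2-fold higher there. Of the genes chosen by the naming rule 3 were among these, and in each the difference between the pairs was not tested, since every genotype had 1 library. Ccr6 had a log2 ratio of -5.57 with TREM2 and 4.09 without it. Ccr6 was at 1.09 CPM with tau and 51.5 CPM without it where TREM2 was present, and at 62.4 and 3.67 CPM where it was not. In the 2 libraries with tau and no Apoe (EKO), Ccr6 was at 1.65 CPM with TREM2 and 71.4 CPM without. Gnb4, a G protein subunit, had -1.22 and 4.50, with 18.3, 42.4, 53.6 and 2.36 CPM in the same order and 49.1 and 3.52 CPM in the EKO libraries. Akap5, an anchor for protein kinase A, had 1.87 and -1.08, with 63.1, 17.3, 9.95 and 21.0 CPM and then 25.4 and 13.1 CPM.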

How the results depend on the processing

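No paired analysis was possible because each genotype had 1 library, and for the same reason no replicate could be left out. The 640 gained and 463 lost genes became 825 lost with a minimum of 20 UMIs, 300 gained and 166 lost with a minimum of 200, 333 and 200 with the whole interval past 2-fold, and 283 lost after thinning to 500 UMIs; the 2 minimum-UMI settings and thinning change which genes are tested. The share of gained genes also gained without TREM2, 65.5%, was 60.2% with the median ratio set to 0, 60.5% with a minimum of 20 UMIs and 74.6% with 200. The difference in the DAM stage 2 share, 45.8 percentage points, was 41.1 at 400 UMIs, 42.5 at 1000, 52.9 without thinning, 38.8 for 2 or more UMIs and 31.9 for 5 or more. The interferon difference, 17.5 points, was 13.04, 34.9, 31.7, 25.6 and 6.26 in that order, and 16.2 without the border macrophage rule. The homeostatic difference at 3 or more UMIs, -1.59 points, was -4.85 at 400 UMIs, 2.97 at 1000, -0.0619 without thinning, -2.35 with neuron-marked nuclei left out, -0.201 for 2 or more, -9.56 for 5 or more and -58.6 for 15 or more (added after seeing the data); at 3 or more it is near its ceiling. Leaving out neuron-marked nuclei, or nuclei marked by any other cell type (added after seeing the data), reversed Meg3 (0.40 and 0.37), Snhg11 (0.75 and 0.76) and Npas4 (3.97 and 3.99); leaving out nuclei above 3 times the median UMI gave 0.28 for Npas4. The cause was not tested for the other changes. Depth limits genes with few UMIs, such as Mki67, and single transcripts per nucleus.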

Other observations

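The nuclei removed by the border macrophage rule, 137 with tau and 132 of at least 500 UMIs without, are set beside the microglia. At 500 UMIs, 34.3% of them with tau (26.4% to 42.9%) and 33.3% without (25.4% to 42.1%) had 3 or more interferon-response UMIs, where the microglia had 21.7% and 4.21%. For DAM stage 2 the shares were 40.9% (32.6% to 49.6%) and 18.2% (12.01% to 25.8%), where the microglia had 69.1% and 23.3%. For lipid storage and export they were 40.1% and 37.9%, beside 39.0% and 11.3% in the microglia. For MHC class II they were 7.30% and 10.6%, beside 2.78% and 0.692%. Intervals cover counting error only, and the difference between these nuclei and the microglia was not tested.

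The library with tau, TREM2 and no Apoe, P301S/EKO/TREM2+, is set beside the pair as levels only, because it would share E4/TREM2+ as its control. Interferon transcripts there were near those of P301S/E4/TREM2+, with Oasl2 at 140 against 114 CPM and Ifi204 at 319 against 338 CPM, and so was H2-D1 at 715 against 762 CPM. Gpnmb was at 8.83 against 229 CPM, Spp1 at 28.7 against 442 CPM, Ms4a7 at 16.3 against 162 CPM and Cd74 at 88.8 against 382 CPM. P2ry12 was at 659 CPM there, above the 358 CPM of P301S/E4/TREM2+.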
